A study of Mus musculus with 6 samples.

Results

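Slit ligands and their Robo receptors were followed in mouse hearts dissected at embryonic day 11.5, with CodeLink arrays that carry a single dye. The genes were Slit1, Slit2, Slit3, Robo1 and Robo2, and every probe that the platform annotation assigns to one of these 5 genes was taken. They are 5 of 18005 genes and 8 of 21676 probes that the annotation lists with a single gene. On 3 arrays the hearts had Dicer inactivated through a Cre recombinase knocked into the Nkx2.5 locus, and the other 3 held control hearts, of a genotype that the labels leave unstated. Effects of Dicer loss and of the Cre allele itself can therefore not be told apart. The labels name no strain and no other allele or agent, and they do not say whether an array held 1 heart or a pool. Nkx2.5-Cre acts in cells that have switched on Nkx2.5, so cells of other origin in a whole heart still have Dicer. The p-values measure only the spread between these arrays, part of which may be technical.

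Slits are large secreted proteins that bind heparan sulphate and Robo receptors at the cell surface. Robos have no enzyme activity of their own and act through adaptors and regulators such as the Slit-Robo GTPase-activating proteins, which change the actin cytoskeleton and adhesion. The pathway is best known for repelling axons, and in the embryonic heart Slit2, Slit3, Robo1 and Robo2 are known for roles in the pericardium, the great veins, the septa and the valves. Dicer cuts miRNA precursors into mature miRNAs. One of these miRNAs, miR-218, is made from introns of Slit2 and Slit3, and Robo1, Robo2 and the heparan sulphate epimerase gene Glce are among its known targets.

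The miR-218 sequences are shown because they tie the ligand genes to the enzyme inactivated here. They are RefSeq sequences on assembly GRCm38.p6, both loci lie on the + strand, and the host genes are on the same strand. Mir218-1 is at chr5:48223942-48224051, inside the span of Slit2 (chr5:47981291-48307735). Mir218-2 is at chr11:35616816-35616925, inside the span of Slit3 (chr11:35121456-35708507). Capitals mark the mature 5p arm in the hairpins and the seed, bases 2 to 8, in the mature miRNAs.
Mir218-1 hairpin: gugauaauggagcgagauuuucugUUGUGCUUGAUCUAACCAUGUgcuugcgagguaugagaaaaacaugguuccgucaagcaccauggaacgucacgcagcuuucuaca
Mir218-2 hairpin: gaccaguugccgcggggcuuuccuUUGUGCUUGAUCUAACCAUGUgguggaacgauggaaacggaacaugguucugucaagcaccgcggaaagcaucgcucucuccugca
miR-218-5p, from both loci: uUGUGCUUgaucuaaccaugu
miR-218-1-3p: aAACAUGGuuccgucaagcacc
miR-218-2-3p: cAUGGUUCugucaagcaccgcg
Both genes thus hold a hairpin with the same 5p arm and seed, whereas the 3p arms have different seeds. The arrays measured messenger RNA, and no miRNA level was available. The Slit2 and Slit3 probes report the host transcripts, and say nothing of how much mature miR-218 was present.

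Levels are given as background-corrected, quantile-normalised log2 intensity. Testing asked that at least 3 of the 6 arrays show a probe above background, which 17589 probes met, and 6 of the 8 Slit and Robo probes were among them. Between 74.1% and 78.2% of the 36227 spots were above background on each array. Dicer1 gave 6.74, 6.73 and 6.68 in mutant hearts and 7.82, 7.63 and 7.71 in control hearts, with no overlap. The fitted difference for Dicer1 was -1.005 ± 0.091 (log2, SE, limma adjusted p = 0.0355), or -1.61 on the authors' normalized scale, which has no offset, and where its probe lies relative to the deleted part is not known here. That call was lost without mutant 1, 2 or 3 or without control 1 or 2, with adjusted p from 0.0653 to 0.321 and no change of sign. The groups overlapped for Nkx2-5, which gave 11.09, 11.06 and 11.02 in mutant hearts against 10.86, 11.27 and 11.74 in control hearts. Its difference of -0.23 (log2) became -0.0063 without control 3. Of 10 cardiomyocyte marker genes on the array, including Tnnt2, Tnni3, Myl2 and Myl7, all were tested. A first principal component that took up 54.0% of the variance set the arrays apart: control 3 lay at -20.7 with mutants 1 and 2 at -18.2 and -29.9, away from controls 1 and 2 at 37.1 and 26.2. Mutant 3 lay between these, at 5.47, so the mutants did not form 1 cluster either. Slit and Robo results that rest on control 3 are therefore also given without it.

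Slit2 was the only one of the 5 genes with a tested probe whose groups did not overlap. It encodes the ligand best known for repulsion through Robo1 and Robo2. Its brighter probe (34848) gave 10.18, 10.10 and 10.32 in mutant hearts and 10.28, 10.71 and 11.15 in control hearts. The mutants kept within a narrow range, and control 3 was the highest array by far, while control 1 lay below mutant 3. The mean was 10.20 ± 0.11 in the mutants and 10.71 ± 0.43 in the controls (SD, n = 3 each), which puts the mutant at 0.701 of the control level (95% interval 0.490 to 1.001). The difference of -0.51 ± 0.22 (log2, SE) did not pass limma's test (adjusted p = 0.4999).

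The second Slit2 probe (1355) is a separate measurement of the same RNA extracts. It gave 7.81, 7.81 and 8.16 in mutant hearts and 8.21, 8.32 and 8.54 in control hearts. All 3 mutants lay below all 3 controls, although mutant 3 and control 1 were close. The difference was -0.43 ± 0.14 (log2, SE), or 0.744 of the control level (95% interval 0.588 to 0.941), and it did not pass either (limma adjusted p = 0.380, unadjusted p = 0.0209). Both probes thus ranked mutant 3 highest among the mutants, and controls 1, 2 and 3 in the same order.

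Among all probes tested, 4.84% had a lower difference than the brighter Slit2 probe and 6.20% a lower one than the second. None of the 6 Slit and Robo probes passed at an adjusted p under 0.05, a threshold that 0.0512% of all probes passed, and 1 had an unadjusted p under 0.05. Probes whose mutants all lay below the controls were 5.3% of those tested, and probes lower at an unadjusted p under 0.05 were 3.27%. One of 6 is a single probe, so these shares set no Slit and Robo probe apart from the rest.

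**Figure D1:**
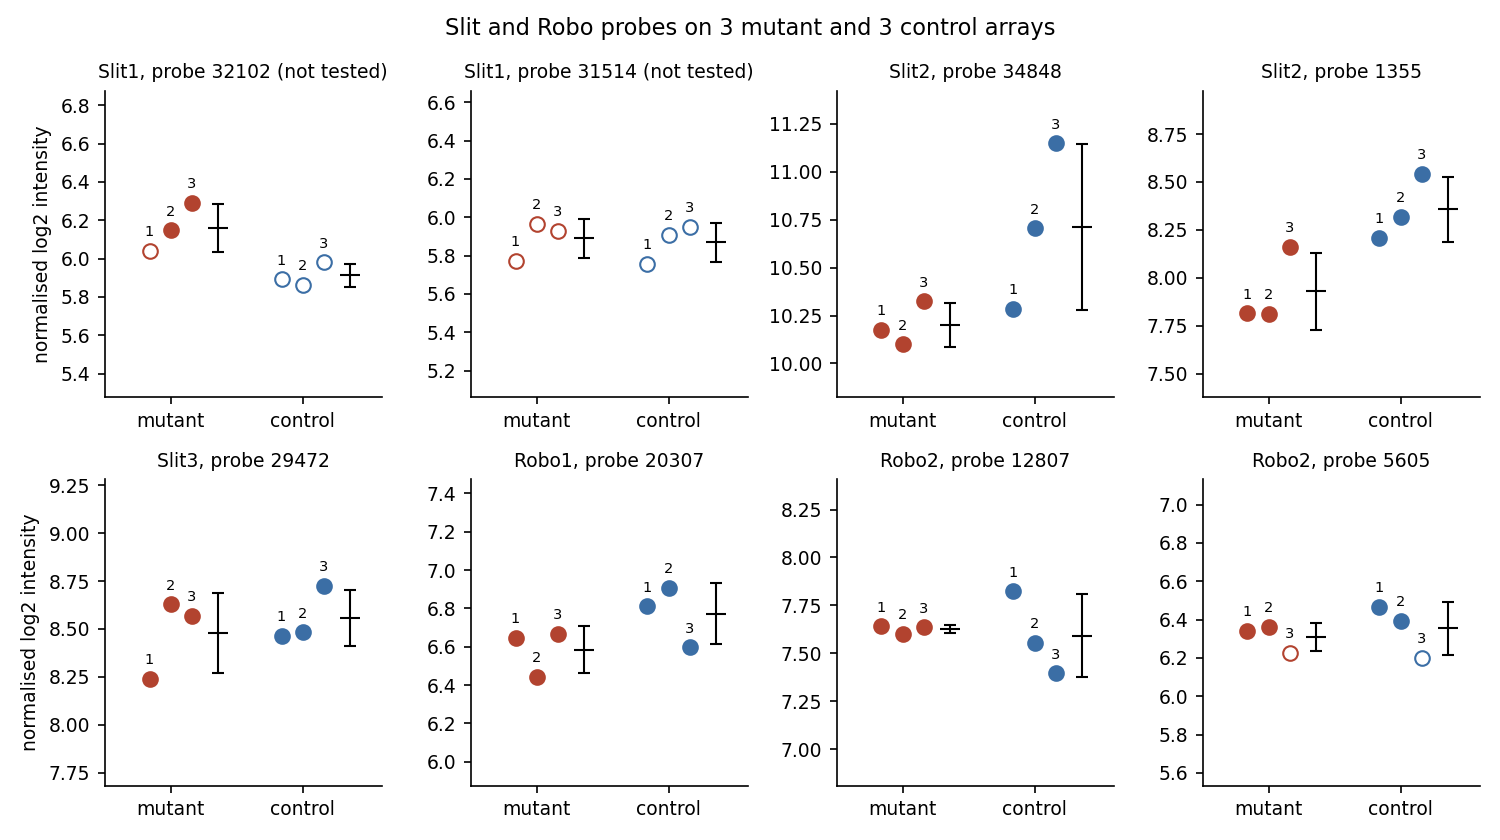
Each panel plots the normalised log2 intensity of 1 probe in the 3 mutant (red) and 3 control (blue) arrays, numbered by replicate, with the mean and SD in black and open circles for spots not above background; each panel spans 1.6 log2 units around its own centre. The second Slit2 probe separates the groups, at 7.81 to 8.16 against 8.21 to 8.54, whereas the tested Slit3, Robo1 and Robo2 probes overlap.

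How large the Slit2 difference was depended on single arrays. Without control 3 the brighter probe gave -0.30 and the second -0.33 (log2). Without control 1 they gave -0.73 and -0.50. A block for the slide, as read from the array titles, compares mutants 1 and 2 with control 1 alone; the brighter probe then gave -0.15 ± 0.13 (SE) and the second -0.40 ± 0.12, neither passing, where 7.44% of all probes did. Both Slit2 probes passed limma's test once arrays were weighted by quality, with adjusted p of 0.0327 and 0.0126, but 24.2% of all probes passed in that setting. Those weights ran from 0.289 for mutant 3 and 0.323 for control 3 to 5.91 for control 2, so that mutant 3 and control 3 counted for little. With control 1 at 0.989, the control mean in that setting rested mostly on control 2. Leaving out mutant 3 and control 3 altogether gave adjusted p of 0.138 and 0.0211, where 22.1% of all probes passed. These calls are therefore not particular to Slit2. In each of these settings the sign was negative.

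**Figure D2:**
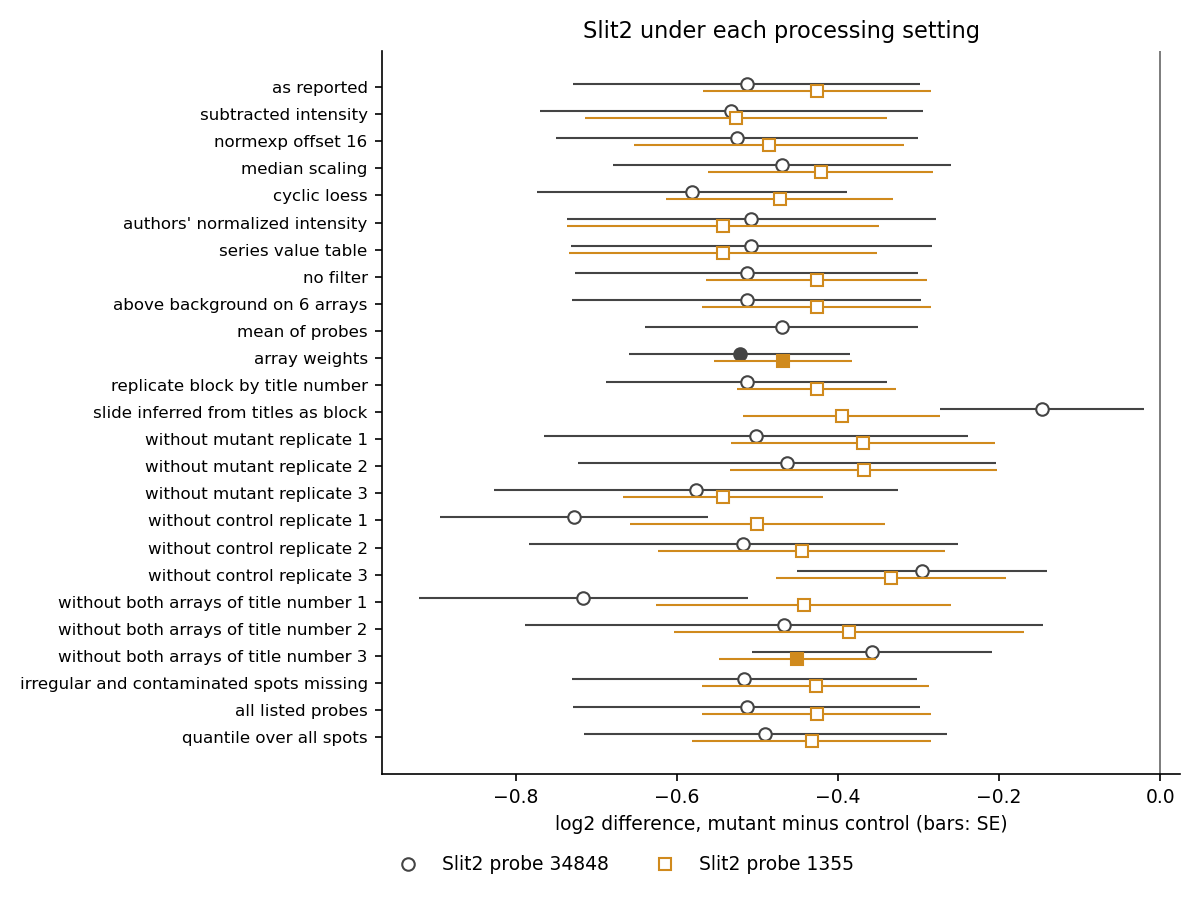
The horizontal axis gives the log2 difference of Slit2, mutant minus control, with its SE, for both probes under each processing setting listed on the vertical axis; filled symbols passed at an adjusted p under 0.05. All values lie below 0, from -0.73 without control 1 to -0.15 with the inferred slide as a block for the brighter probe.

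The control with the most Slit2 also had the highest levels of several heart muscle genes. That array, control 3, stood apart from controls 1 and 2 on the first principal component given above. How many of all genes were highest in it was not counted. The mean over the 10 cardiomyocyte markers was 11.66 in control 3 (log2), against 10.96 and 11.17 in controls 1 and 2 and 11.15 to 11.23 in the mutants. Nkx2-5, a transcription factor of cardiac progenitors and muscle, was likewise highest in control 3, as given above. On the same list Tnnt2, Tnni3, Myl7 and Ryr2 were not highest in control 3. Tnnt2 and Tnni3 leaned towards the mutants, at 0.46 and 0.41 (log2) with overlapping groups. In a whole heart, fewer cells of a type and less RNA per cell cannot be told apart. The mean over 8 epicardium and pericardium markers was 8.55 to 8.66 in mutant hearts and 9.02, 8.93 and 8.58 in control hearts, so that control 3 lay within the mutants' range. Over 10 cushion mesenchyme markers it was 9.08 to 9.27 in mutant hearts and 9.22 to 9.23 in control hearts. Members of that list lay on both sides: Fbln1 and Vcan, of the extracellular matrix, gave 0.71 and 0.61 (log2) with mutants all above the controls, and Postn, another matrix gene, -0.56 with mutants all below. These are values of the brightest probes, and a dimmer Vcan probe gave only 0.076. The mean over 8 endothelial and endocardial markers was 9.20 to 9.39 in mutant hearts against 9.37 to 9.47 in control hearts. Of these 8, 7 lay below 0 and 1 above. Kdr, Tie1 and Esam had mutants all below the controls, at -0.13, -0.14 and -0.28 (log2), while groups were apart in 15.2% of all genes tested. The mean over 8 neural and neural crest markers was 7.22 to 7.38 against 7.14 to 7.66. Over 8 erythroid markers it was 10.77 to 11.02 against 11.45, 11.30 and 10.86, with control 3 again among the mutants. Hba-x, Hbb-bh1 and Hbb-y (14.90 to 15.23) and the muscle gene Myl7 (14.90 to 15.16) were very bright. Between 184 and 263 spots per array were saturated, which can hide a difference, and whether these genes' spots were among them was not examined. None of the tested markers in these 6 lists passed. The part of cell composition in the Slit2 result was not tested.

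Slit3, the ligand that hosts the second miR-218 hairpin, had overlapping groups. Its single probe (29472) gave 8.24, 8.63 and 8.57 in mutant hearts and 8.47, 8.48 and 8.72 in control hearts. The lowest array was mutant 1, and mutants 2 and 3 lay between controls 2 and 3. The difference was -0.078 ± 0.14 (log2, SE, limma adjusted p = 0.867), with a 95% interval from -0.41 to 0.25. The sign rested on single arrays: without mutant 1 the difference was 0.041, and without control 3 it was 0.0054. The 2 host genes of miR-218 therefore gave -0.51 and -0.078 on their brightest probes, and whether they differ from each other was not tested.

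Slit1, the ligand known chiefly from the nervous system, was at the limit of detection. Probe 32102 was above background on mutants 2 and 3 and on none of the controls, and probe 31514 was above background on no array. Neither entered the test. Probe 32102 gave 6.04, 6.15 and 6.29 in mutant hearts and 5.89, 5.86 and 5.98 in control hearts, with all the mutants above the controls. The lowest signal called above background was 6.09 to 6.20, depending on the array, so the values of mutant 1 and of the controls are only bounds and no fold is given. The other probe gave 5.77 to 5.97 in mutant hearts and 5.76 to 5.95 in control hearts.

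Robo1, a receptor for Slits on migrating cells and axons, was dim on this array. Its probe (20307) gave 6.65, 6.44 and 6.67 in mutant hearts and 6.81, 6.91 and 6.60 in control hearts. Control 3 lay among the mutants and controls 1 and 2 above them. The difference was -0.19 ± 0.12 (log2, SE), or 0.878 of the control level (95% interval 0.720 to 1.07), and did not pass (limma adjusted p = 0.622). Leaving out 1 array moved it between -0.27, without control 3, and -0.12, without mutant 2 or without control 2, and leaving out mutant 2 and control 2 together gave -0.047. The spot of control 2, the highest of the 6, carried a quality flag read as irregular in shape. With irregular and contaminated spots left out, a setting chosen after seeing the data, the difference was -0.12 ± 0.13. On the authors' normalized scale, free of any offset, it was -0.41 ± 0.22, and with array weights -0.35 ± 0.089 (adjusted p = 0.0296), the one setting in which Robo1 passed, along with the 24.2% of all probes given above.

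Robo2, the other main Slit receptor, had overlapping groups on both probes. The brighter probe (12807) gave 7.64, 7.60 and 7.63 in mutant hearts and 7.82, 7.56 and 7.40 in control hearts. The mutants were nearly equal, while the controls spread on both sides of them. The difference was 0.035 ± 0.13 (log2, SE, limma adjusted p = 0.940), with a 95% interval from -0.27 to 0.33. Its sign turned without control 3, to -0.064, and with the inferred slide as a block, to -0.20. The dimmer probe (5605) was above background on 4 arrays, and not on mutant 3 or control 3. It gave 6.34, 6.36 and 6.23 against 6.47, 6.39 and 6.20, a difference of -0.044 ± 0.11 (adjusted p = 0.904).

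The intervals bound how far these receptors could have moved on this scale. For Robo1 the limits were 0.720 and 1.07 of the control level, and for the brighter Robo2 probe 0.832 and 1.26. Normexp with an offset of 50 pulls differences of dim probes towards 0, so these limits hold for this scale only. Glce, which encodes the heparan sulphate epimerase, gave 8.86, 8.57 and 8.99 in mutant hearts and 8.86, 8.82 and 8.82 in control hearts. The mutants thus lay on both sides of the controls, and the difference was -0.022 ± 0.13 (log2, SE, adjusted p = 0.963).

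**Figure D3:**
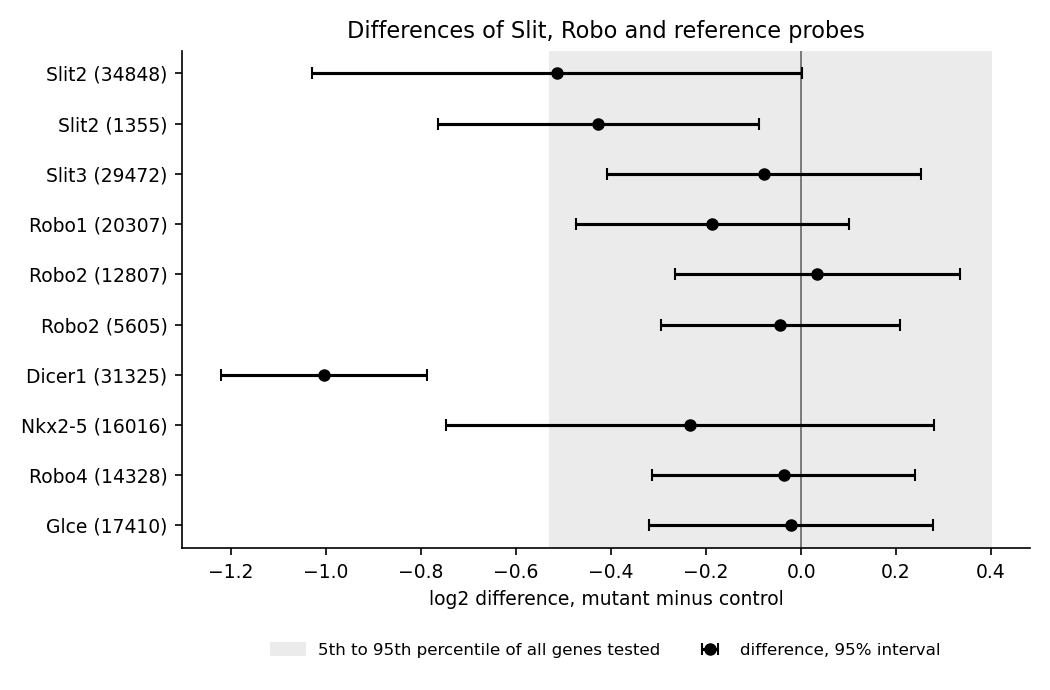
The horizontal axis gives the log2 difference, mutant minus control, with its 95% interval for each tested Slit and Robo probe and for Dicer1, Nkx2-5, Robo4 and Glce (probe numbers in brackets), over a grey band from the 5th to the 95th percentile of all genes tested, -0.53 to 0.40. Dicer1, at -1.005, lies well outside the band, the brighter Slit2 probe at -0.51 just inside its lower edge, and the others nearer to 0.

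Of the other Robo receptors, Robo4, the form of endothelial cells, was measured, and Robo3 was not analysed here. Robo4 gave 7.17, 7.30 and 7.42 in mutant hearts and 7.23, 7.27 and 7.50 in control hearts. Each group spanned nearly the same range, and the difference was -0.037 ± 0.12 (log2, SE, limma adjusted p = 0.931). It turned positive without mutant 1 or control 3, at 0.027 and 0.045.

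Further pathway genes were described from lists, using the brightest probe of each gene. None of the 40 genes tested passed, where 0.06% of all genes did, and 5 had an unadjusted p under 0.05, as had 10.2% of all genes. The groups did not overlap in 10 of the 40, against 15.2% of all genes tested. Their median difference was -0.029 (log2), beside 0.011 over all 15012 genes, and 23 lay below 0, beside 47.6% of all genes.

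Among 15 cytoplasmic effectors of Robo, 7 lay above 0 and 8 below, with a median of -0.0040. Cdc42, the small GTPase that Slit-Robo GTPase-activating proteins switch off, gave 11.12, 11.11 and 11.26 in mutant hearts and 11.65, 11.62 and 11.79 in control hearts. The groups were well apart, and the difference was -0.52 ± 0.10 (log2, SE), although it did not pass (limma adjusted p = 0.157). Cap1, an actin-binding cyclase-associated protein, gave 9.12, 9.34 and 9.36 against 8.84, 8.65 and 9.09. Its groups were also apart, in the other direction, at 0.41 ± 0.14 (adjusted p = 0.384). The GTPase-activating proteins Srgap1, Srgap2 and Srgap3 themselves gave 0.0097, -0.14 and -0.049. For Srgap2 the mutants lay just below the controls on this probe (adjusted p = 0.629), and a dimmer probe gave -0.37.

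Among 11 co-receptors and partners of Slit and Robo, 9 lay below 0, with a median of -0.12 (log2). Cxcr4, the chemokine receptor whose signalling Slit can dampen, gave 7.40, 7.26 and 7.81 in mutant hearts and 8.10, 8.01 and 8.07 in control hearts. The difference was -0.57 ± 0.15 (SE, limma adjusted p = 0.270). It was -0.77 with the inferred slide as a block, which rests on control 1, and -0.46 without mutant 2. Sdc4, a heparan sulphate proteoglycan of the cell surface, gave 7.68, 7.83 and 7.97 against 8.66, 8.30 and 8.22. Both genes had mutants all below the controls, and the difference of Sdc4 was -0.56 ± 0.15 (adjusted p = 0.267). It was -0.91 with the inferred slide as a block, which rests on control 1, its highest array, and -0.35 without mutant 1 and control 1. Cdh2, N-cadherin, lay on the other side at 0.36 ± 0.16 with overlapping groups.

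The genes that make and edit heparan sulphate, the sugar chain that Slit and Robo both bind, had a median of 0.052 (log2) over 13 members, 8 of them above 0. Sulf2, which removes sulphate groups from the finished chain, gave 12.62, 12.88 and 12.79 in mutant hearts and 12.01, 12.30 and 12.63 in control hearts. Control 3 lay level with mutant 1, and the difference was 0.45 ± 0.17 (SE, limma adjusted p = 0.443). It was 0.61 without control 3, 0.30 without control 1 and 0.74 with the inferred slide as a block. Hs3st1, a sulphotransferase, gave -0.15 ± 0.091 with mutants just below the controls (adjusted p = 0.598). It was -0.099 without mutant 3, -0.067 with the slide as a block and -0.33 on the authors' normalized scale.

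**Figure D4:**
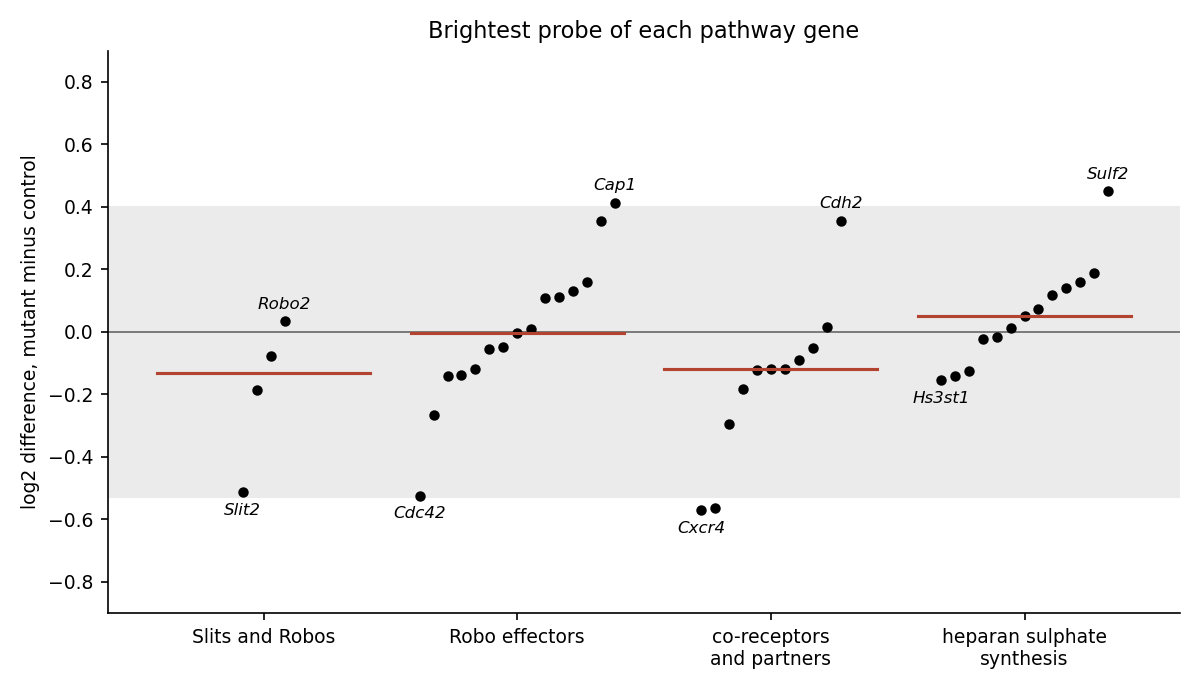
Each point is the log2 difference, mutant minus control, of the brightest tested probe of 1 gene, grouped by role; red lines are list medians and the grey band spans the 5th to 95th percentile of all genes tested. The medians run from -0.13 for the 4 Slit and Robo genes tested to 0.052 for heparan sulphate synthesis, and Cxcr4, Sdc4, Cap1 and Sulf2 lie just outside the band.

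Genes with the most similar pattern were ranked by the root mean square difference between mean-centred log2 values over the 6 arrays, among 13711 other genes. For Slit2, which ranged over 1.05 between arrays, the nearest were Scube2, Meox1 and Tmem35a, at 0.092, 0.095 and 0.096. Meox1, a homeobox gene of somites, gave 8.39, 8.35 and 8.39 in mutant hearts and 8.60, 8.82 and 9.47 in control hearts. It was picked for a pattern like that of Slit2, so its highest value in control 3 follows from the choice. The nearest genes of Slit3 were Mcm8, Lancl1 and Isoc2b (0.027 to 0.047). Those of Robo1 were Peli3, Eri2 and Ano8 (0.027 to 0.037), and those of Robo2 were Cstdc2, Cfc1 and Acvr1b (0.031 to 0.035). With 6 arrays many genes match closely, and the ranking depended on the scale: with the authors' normalized intensity 0 of the 3 nearest genes of Slit2 and 0 of those of Robo1 were kept, 1 of those of Slit3 and 2 of those of Robo2.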

How the data were processed

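RNA of 3 Dicer mutant and 3 control hearts was labelled with biotin, per the labels' protocols. The authors deposited, per array, intensity values: spot mean, local background, a background-subtracted intensity and a normalized intensity, which was the subtracted one divided by a constant of the array (66.1 to 82.8), plus a quality flag. The labels name neither scanner nor software. Normexp (offset 50; limma 3.58.1, R 4.3.3) removed background from spot means, and log2 values were quantile-normalised over spots the platform annotation lists with a gene. Flag letters were read by CodeLink's usual meaning, and irregular spots were kept. Probes with 1 gene, above background on at least 3 of 6 arrays, were fitted by lmFit and eBayes with group as the only term, two-sided, with Benjamini-Hochberg adjustment over all 17589 probes. The number of arrays limits the precision. The fit was tested on simulated data drawn independently for each probe and array. Such data cannot show how the fit copes with shifts shared by many probes of an array. The members and lists were chosen with earlier results of these data known. Named are all Slit and Robo probes, Dicer1, Nkx2-5, Robo3, Robo4, Glce, per pathway list the passing genes (up to 4) or else the 2 with the smallest p, and the 3 nearest genes of each member; Srgap1, Srgap2, Srgap3, Cdh2 and the marker genes were added after their values were seen. RefSeq symbols and sequences are of GRCm38.p6. The 24 alternatives changed the background correction, scaling, values, filter, probe rule, weights, blocks, spots or arrays.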

Additional observations from a re-analysis of the deposited data

How the results depend on the processing

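Of 141 values of Slit and Robo probes under the 24 alternatives, 129 kept their direction and their side of the threshold, 4 came to pass, and 8 had the opposite sign while not passing. The counts over all probes moved more. The 9 probes that passed became 5 with the subtracted intensity, 4 with the authors' normalized intensity, 5 with the series' value table, 5 with the mean of each gene's probes, 4251 with array weights and 1308 with the inferred slide as a block. Leaving out 1 array gave 0 to 321, and leaving out a title number with its 2 arrays 0 to 3879. Of the 6 Slit and Robo probes tested, 0 passed except 3 with array weights and 1 without title number 3. The slide block rests on control 1 alone, so its count of pathway genes is not given. Apart from it, 0 of the 40 pathway genes passed except in 2 settings. They were 8 with array weights and 9 without title number 3, where 24.2% and 22.1% of all probes passed. The cause of these changes in the counts was not tested.

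The array titles share a number between 1 mutant and 1 control each. With that number as a replicate block 0 probes passed, with 1315 at an unadjusted p under 0.05, and Slit2 gave -0.51 (limma adjusted p = 0.641). Same-numbered arrays did not deviate together from their group means (r = 0.0156, -0.479 and -0.38 across probes). Not every array correlated best with its own number. Deviations from a group mean cancel out over the few arrays of a group, so these correlations depend on one another. They cannot decide whether same-numbered arrays have more in common than the number, and the labels do not say.

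Signs turned for Slit3 with array weights (0.0028) and without 1 array (-0.15 to 0.041; -0.19 without title number 2), for the brighter Robo2 probe with the mean of probes (-0.0046), the inferred slide (-0.20), without 1 array (-0.064 to 0.15) and without title number 3 (-0.068), and for the dimmer one without 1 array (-0.12 to 0.013). They also turned for Robo4 with the slide (0.0026) and without 1 array (-0.098 to 0.045), for Glce with median scaling (0.0040), without 1 array (-0.11 to 0.097) and without title number 2 (0.089), and for Nkx2-5 with the slide (0.22) and without title number 3 (0.013; -0.47 without title number 1). Low signal limits Slit1, Robo1 and the dimmer Robo2 probe.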
